A study of Mus musculus with 14 samples.

Results

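A set of 9 genes that mark hepatocytes around the central vein of the liver lobule, called perivenous genes here, was followed through 14 mouse liver tumours. They were chosen by symbol, as the rows for Glul, Rhbg, Slc1a2, Oat, Cyp2e1, Cyp1a2, Gulo, Lect2 and Tbx3, and are 9 of the 77981 genes in the table of read counts. Plasmids carrying mouse c-Myc and mouse β-catenin, delivered by hydrodynamic injection, a method that puts DNA into hepatocytes, had started the tumours. Genotype was the variable: 5 libraries came from wild-type mice (WT), 5 from mice without Cdk18 (CDK18KO) and 4 from mice without both Cdk16 and Cdk18 (DKO), kinases of the PCTAIRE family. Cdk16 was floxed (Cdk16 fl/fl) and removed in established tumours with a tamoxifen-activated recombinase, Cre-ERT2, whose promoter the labels do not give. Tamoxifen was given at 75 mg/kg on 5 days to Cdk16 fl/fl Cre-ERT2 mice and Cre-ERT2 controls, and tumours were taken 10 days after the last dose. Whether the WT and CDK18KO groups carried Cre-ERT2 or received tamoxifen is not given, nor are age, sex or strain. Tumours were otherwise collected at 15 mm diameter, at signs of distress or at 8 weeks, so their ages may differ, and every group carried both plasmids.

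A hepatocyte's place in the lobule sets much of its metabolism. Wnt ligands from the endothelium of the central vein stabilise β-catenin in the nearest hepatocytes, and β-catenin with TCF factors supports the perivenous programme there, while periportal hepatocytes run urea synthesis and gluconeogenesis. Perivenous cells capture the ammonia that escaped the urea cycle and carry many of the drug-metabolising enzymes. Liver tumours with activated β-catenin often express this programme, and glutamine synthetase is used in pathology as its marker. That these genes depend on β-catenin is background: no measurement here tested it.

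In the nitrogen group, Glul encodes glutamine synthetase, which joins ammonia to glutamate, Rhbg an ammonium transporter, Slc1a2 a glutamate importer, and Oat ornithine aminotransferase, which turns ornithine towards glutamate. Cyp2e1 (ethanol and acetaminophen oxidation) and Cyp1a2 (caffeine and aromatic amine oxidation) are cytochromes P450, and Gulo encodes the last enzyme of vitamin C synthesis. Lect2 is a secreted liver protein and Tbx3 a T-box transcription factor, both known as β-catenin targets in liver tumours. In the GENCODE M21 annotation of GRCm38 the genes lie on 8 chromosomes: Glul at 1:153899944-153909723, Slc1a2 at 2:102658659-102790784, Rhbg at 3:88242874-88254709, Tbx3 at 5:119670669-119684724, Oat at 7:132557478-132576398, Cyp2e1 at 7:140763739-140774987, Cyp1a2 at 9:57676937-57683703, Lect2 at 13:56542464-56548502 and Gulo at 14:65986786-66009207. All 9 are annotated as protein coding. Some spans overlap other genes. Fgfr2, on the strand of Oat, and Tbx3os1, antisense to Tbx3, had 502 counts each over the 14 libraries, Teddm2, antisense to Glul, had 81, and the other 3 overlapping genes had 0.

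RefSeq (GRCm38.p6) gave the bases before the start of 6 of the 9 genes. A search of 250 bases on both strands for the TCF core, CTTTG followed by a pair of bases that are each A or T, found 1 match each for Slc1a2, Cyp2e1, Cyp1a2 and Lect2 and none for Glul or Oat. The window of Glul lies wholly under annotated exons of other genes, Teddm2 and Mir8114, and is not printed. Of all 32851 RefSeq windows of that length, 14.8% held a match. The 4 windows with a match follow, 5′ to 3′ on the gene's strand, with the match or its reverse complement in capitals. They show how differently the same core is placed. Where an annotated exon reaches into the 250 bases, the sequence stops before it, and the start used for Slc1a2 lies inside the gene's full annotated span.
Slc1a2, chr2:102706188-102706355, plus strand: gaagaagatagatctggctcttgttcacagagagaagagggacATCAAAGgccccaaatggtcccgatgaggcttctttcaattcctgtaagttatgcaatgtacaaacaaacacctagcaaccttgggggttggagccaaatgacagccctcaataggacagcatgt
Cyp2e1, chr7:140763569-140763738, plus strand: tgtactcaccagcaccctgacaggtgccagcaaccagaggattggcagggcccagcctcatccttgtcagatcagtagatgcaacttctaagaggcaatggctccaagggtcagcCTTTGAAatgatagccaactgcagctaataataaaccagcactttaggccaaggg
Cyp1a2, chr9:57683704-57683905, minus strand: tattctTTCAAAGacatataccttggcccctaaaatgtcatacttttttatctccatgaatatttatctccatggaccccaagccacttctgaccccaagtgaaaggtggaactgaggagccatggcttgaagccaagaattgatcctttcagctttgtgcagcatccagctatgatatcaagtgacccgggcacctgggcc
Lect2, chr13:56548539-56548788, minus strand: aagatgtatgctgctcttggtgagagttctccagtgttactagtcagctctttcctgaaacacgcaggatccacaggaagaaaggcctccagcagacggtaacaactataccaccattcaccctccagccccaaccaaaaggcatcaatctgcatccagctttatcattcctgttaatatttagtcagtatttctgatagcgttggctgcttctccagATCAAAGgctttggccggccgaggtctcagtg
The match lay 207 to 201 bases before the start in Slc1a2, 135 to 129 in Cyp2e1, 244 to 238 in Cyp1a2 and 32 to 26 in Lect2, reading on the opposite strand in each but Cyp2e1. The core of the binding site of the aryl hydrocarbon receptor, GCGTG, present in 28.2% of all windows, was found only in Lect2 among the 6 and not in the window of Cyp1a2, the best-known target of that receptor in this set. GTTAAT, part of the HNF1 site and present in 6.43% of windows, was likewise found only in Lect2. A match describes letters in a window and says nothing about binding, and the window of 250 bases leaves out distant enhancers.

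The 14 libraries held 1442417 to 6068209 counts, with WT 5 the shallowest and WT 2 the deepest, and were made with a 3′ end method that gives 1 tag per transcript, so counts need no division by gene length. Levels below are CPM, the counts scaled to a common total of the retained genes with trimmed mean of M values (TMM) factors. Cdk18 was low in every group, with medians of 4.63 CPM in WT, 1.86 in CDK18KO and 1.53 in DKO, and Cdk16 had medians of 47.8, 36.7 and 28.4; neither passed the test against WT (edgeR adjusted p between 0.31 and 0.691). DKO 3 had 48.5 CPM of Cdk16, above the WT median, and DKO 1 had 4.00 CPM of Cdk18, above WT 1 (2.22) and WT 4 (1.26). Whether the counted 3′ ends lie in the deleted parts is not given, so these values check no label. General hepatocyte markers were present in all groups: none of the 23 secreted-protein genes listed (Alb, Ttr, apolipoproteins, fibrinogens and others) was at 0 throughout a group. Their summed level ran from 264 to 7804 CPM in WT, 2952 to 27222 in CDK18KO and 3031 to 39524 in DKO. Summed Y-linked counts exceeded 100 CPM in 3 libraries, WT 3, WT 5 and CDK18KO 1, and no DKO library was above 2.78 CPM. WT 1 and WT 4 had 33.0 and 18.3 CPM, and WT 2 had 3.85. The labels give no sex. All 4 Y-linked genes were lower in DKO than in WT at an unadjusted p under 0.05 with edgeR, as were 730 of 13997 genes. The Y-linked level thus differed along with genotype, and leaving out the 3 libraries does not remove this from DKO against WT. Without the 3 libraries above 100 CPM, 0 of the 9 perivenous genes passed in each comparison. Against WT the log2 fold change of Tbx3 was then 1.35 in CDK18KO and 1.96 in DKO, and that of Oat 2.35 and 3.61. In DKO all others were lower than with 14 libraries: Lect2 2.62, Rhbg 2.92, Gulo 3.10, Slc1a2 3.60, Cyp2e1 4.06, Cyp1a2 4.11 and Glul 2.05. In CDK18KO, Lect2 (2.30), Rhbg (2.61), Cyp1a2 (2.61) and Gulo (2.75) were lower. Glul (1.94) and Slc1a2 (3.55) were higher there, and Cyp2e1 was at 3.46. The counts of any pair of libraries differed by more than sampling noise.

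The nitrogen genes were led by Glul, which had the highest level of the 9 genes in each of the 14 libraries. Glul stood at 234, 803, 220.1, 409 and 649.6 CPM in WT 1 to WT 5, at 929.7, 5340.2, 361, 1697 and 371 in CDK18KO 1 to 5, and at 1473, 4703, 421 and 1832 in DKO 1 to 4. Group means were 463 ± 257 CPM in WT (SD, n = 5), 1739.8 ± 2085 in CDK18KO (n = 5) and 2107 ± 1831 in DKO (n = 4). CDK18KO 2 and DKO 2 were far above the rest, while CDK18KO 3, CDK18KO 5 and DKO 3 lay inside the WT range, so the groups overlapped. Slc1a2 spanned a 964-fold range, the widest of the 5 genes for which every library held more than 3 counts. It was at 1.48, 71.6, 1.75, 21.7 and 66.3 CPM in WT, at 115, 1429, 16.8, 151 and 7.88 in CDK18KO, and at 361, 931, 48.9 and 319.5 in DKO. WT 1 and WT 3 had 4 and 6 counts of it. In all, 3 of the 4 DKO libraries and 3 of the 5 CDK18KO libraries were above every WT library, and the other 3 were not. The mean of Slc1a2 was 32.6 ± 34.3 CPM in WT, 344 ± 609.9 in CDK18KO and 415 ± 371 in DKO.

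Rhbg had the lowest level of the 9 genes in every library. In WT it had 0, 59, 1, 0 and 2 counts, which is at most 8.11 CPM, and the 2 libraries with no count allow up to 1.11 CPM (WT 1) and 0.945 CPM (WT 4), taking 3 counts as the limit of a count of 0. It reached 4.66, 69.1, 0.311, 3.96 and 6.02 CPM in CDK18KO and 28.3, 63.7, 1.62 and 4.45 in DKO. The values above 10 CPM were in CDK18KO 2, DKO 1 and DKO 2, and all 3 groups held values under 2 CPM. Oat was at 44.1, 55.4, 63.2, 63.7 and 201 CPM in WT, at 91.6, 731, 64.6, 263 and 82.0 in CDK18KO, and at 507, 1936, 112 and 212 in DKO. Without WT 5, the other WT libraries were below every library of the other groups, and WT 5 was above 3 CDK18KO libraries and 1 DKO library. The mean of Oat was 85.4 ± 64.9 CPM in WT, 246 ± 282 in CDK18KO and 692 ± 846 in DKO.

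Among the oxidative enzymes, Cyp2e1 moved over a 527-fold range. It was at 4.82, 135, 10.2, 9.45 and 69.4 CPM in WT, at 139, 1719, 35.4, 524 and 106 in CDK18KO, and at 817, 2540.5, 34.0 and 257 in DKO. The mean was 45.7 ± 56.4 CPM in WT, 505 ± 705 in CDK18KO and 912 ± 1134 in DKO. WT 1, WT 3 and WT 4 were below every knockout library, and the groups overlapped through WT 2 and WT 5. Cyp1a2 was lower than Cyp2e1 in every library, with 0.371, 48.2, 1.46, 5.99 and 31.6 CPM in WT, 55.9, 432, 10.9, 39.6 and 10.2 in CDK18KO, and 299, 1033, 30.7 and 42.8 in DKO. WT 1, WT 3 and WT 4 were again the lowest, with 1, 5 and 19 counts. Gulo was at 1.11, 196, 9.02, 13.2 and 69.4 CPM in WT, at 125, 1205, 57.1, 697 and 82.9 in CDK18KO, and at 606, 1668, 60.5 and 307 in DKO. Again WT 1, WT 3 and WT 4 lay below every knockout library and WT 2 above several. The means of Cyp1a2 were 17.5 ± 21.4, 109.7 ± 181 and 351 ± 471 CPM, and those of Gulo 57.7 ± 81.8, 434 ± 506 and 660.3 ± 708, in WT, CDK18KO and DKO in that order.

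Lect2 was at 0.371, 67.6, 2.33, 3.15 and 9.26 CPM in WT, at 14.3, 276, 12.7, 165 and 58.4 in CDK18KO, and at 209, 379, 10.0 and 48.3 in DKO. In WT, 4 of the 5 libraries were under 10 CPM and below all 9 knockout libraries, and WT 2 alone exceeded 5 of those 9. The mean was 16.5 ± 28.7 CPM in WT, 105 ± 114 in CDK18KO and 162 ± 169 in DKO. Tbx3 had another order: 70.5, 73.5, 33.8, 13.9 and 368 CPM in WT, 63.7, 309, 41.3, 155 and 46.8 in CDK18KO, and 81.7, 274, 153 and 335 in DKO. Its highest library was WT 5, which was not the highest for any of the other 8 genes. Its means were 112 ± 145, 123 ± 114 and 211 ± 114 CPM in WT, CDK18KO and DKO.

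**Figure D1:**
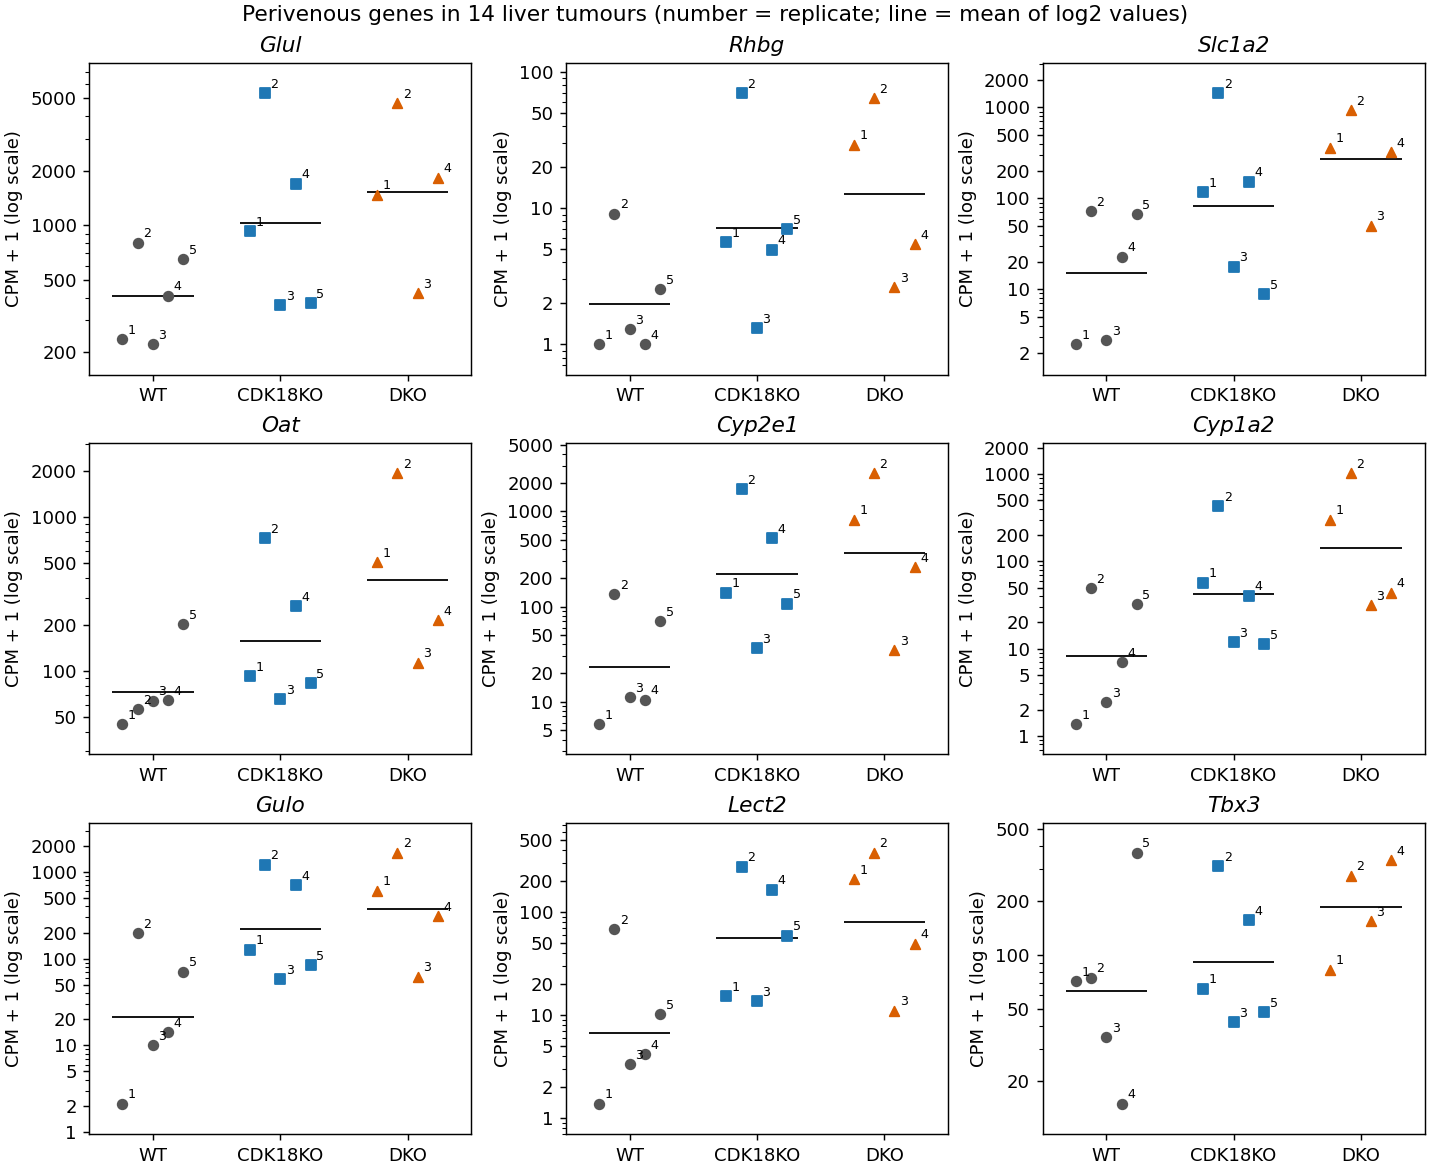
CPM + 1 of the 9 genes (log scale) in each library, by genotype; points are single tumours, numbers are replicates and lines are means of the log2 values. CDK18KO 2 and DKO 2 were among the 4 highest libraries for 9 of 9 genes, WT 3 was among the 4 lowest for 9, and the groups overlapped for every gene.

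Counted over libraries, the same tumours were high for most of these genes. CDK18KO 2 and DKO 2 were among the 4 highest of 14 for 9 of 9 genes, DKO 1 for 7 and CDK18KO 4 for 5. WT 3 was among the 4 lowest for 9, WT 1 for 8 and WT 4 for 7. CDK18KO 2, DKO 1 and DKO 2 were each above every WT library for 8 of 9 genes, but CDK18KO 3, CDK18KO 5 and DKO 3 for 0. WT 2 was above CDK18KO 3 and CDK18KO 5 for 8 genes each and above DKO 3 for 7. The 9 genes together made up from 0.0364% of the counts in WT 1 to 1.08% in DKO 2. Their spread was large among genes: the SD of log2(CPM + 1) over the 14 libraries was 2.85 for Slc1a2 and 2.74 for Cyp2e1, above 99.9% and 99.8% of the 13997 genes tested, and 1.48 for Glul (88.2%) and 1.40 for Tbx3 (86.4%).

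CDK18KO was compared with WT to ask how loss of Cdk18 alone changed these tumours. All 9 log2 fold changes were above 0, against 49.4% of all genes tested, with a median of 2.64 against -0.01 over all genes. The largest were those of Cyp2e1, 3.46 (SE 1.28), and Slc1a2, 3.40 (SE 1.37), followed by Gulo with 2.90 (SE 1.23), Rhbg with 2.87 (SE 1.41), Cyp1a2 with 2.64 (SE 1.33) and Lect2 with 2.62 (SE 1.24). Glul had 1.91 (SE 0.77), Oat 1.54 (SE 0.82) and Tbx3 0.15 (SE 0.78). None of the 9 passed edgeR's quasi-likelihood test at a Benjamini-Hochberg adjusted p of 0.05, where 0.00714% of all genes did; their adjusted p ran from 0.204 for Cyp2e1 to 0.94 for Tbx3. At an unadjusted p under 0.05, 4 of 9 were higher (Cyp2e1, Glul, Slc1a2 and Gulo), against 11.6% of all genes. DESeq2 called 1 of 9, Cyp2e1 (adjusted p 0.032), against 3.46% of genes called higher by it. No gene's groups were apart, which was so with CDK18KO higher for 1.1% of all genes. CDK18KO 2 carried much of the difference: without it the log2 fold change was 0.69 for Rhbg, 0.70 for Cyp1a2, 1.14 for Slc1a2, 0.84 for Glul, 0.56 for Oat and 2.09 for Cyp2e1, and that of Tbx3 was -0.52. Leaving out WT 2 instead raised it to 5.51 for Rhbg and 4.92 for Lect2, and leaving out WT 5 gave 1.33 for Tbx3.

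DKO was compared with WT to ask the same of loss of both kinases. Tamoxifen, Cre-ERT2 and the time of collection may differ along with genotype here and cannot be told apart from it. The same WT libraries served as controls, so the 2 sets of values are given side by side and are not independent. All 9 log2 fold changes were above 0, against 47.9% of all genes, and their median was 3.43 against -0.04. They were 4.32 (SE 1.46) for Cyp1a2, 4.31 (SE 1.36) for Cyp2e1, 3.68 (SE 1.42) for Slc1a2, 3.51 (SE 1.29) for Gulo, 3.43 (SE 1.46) for Rhbg, 3.24 (SE 1.31) for Lect2, 3.03 (SE 0.89) for Oat, 2.19 (SE 0.80) for Glul and 0.92 (SE 0.82) for Tbx3. With edgeR, again 0 of 9 passed the adjusted threshold, against 0.00714% of all genes, with adjusted p from 0.146 for Oat and Cyp2e1 to 0.557 for Tbx3. All but Tbx3, 8 of the 9, were higher at an unadjusted p under 0.05, where 13.7% of all genes were. DESeq2 called 5 of 9, against 5.3% of genes called higher: Cyp2e1 (adjusted p 0.0122), Oat (0.0169), Cyp1a2 (0.02), Gulo (0.0383) and Slc1a2 (0.0453). It did not call Lect2 (0.0667), Glul (0.0684), Rhbg (0.101) or Tbx3 (0.554). No gene's groups were apart, against 3.04% of all genes with DKO higher. Leaving out DKO 2 gave the lowest log2 fold change for most of the genes, for example 1.74 for Oat, 1.42 for Glul and 2.82 for Cyp1a2. Without WT 2 it was 6.07 for Rhbg and 5.54 for Lect2, and without WT 5 it was 2.09 for Tbx3.

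DKO was then compared with CDK18KO, groups whose labels differ by the removal of Cdk16. Tamoxifen, Cre-ERT2 and the time of collection may differ along with it, and this comparison cannot tell them apart. The 9 log2 fold changes were between 0.27 (Slc1a2) and 1.68 (Cyp1a2), and all were above 0, against 48.2% of all genes, with a median of 0.62 against -0.02. With edgeR 0 of 9 passed, as did 0% of all genes, and 0 of 9 had an unadjusted p under 0.05 with DKO higher, against 3.94% of all genes. DESeq2 called 0 of 9, against 0.674% called higher. The intervals of 2 SE were wide: -1.30 to 1.85 for Glul, -2.36 to 2.91 for Slc1a2, -1.60 to 3.31 for Cyp2e1 and -0.21 to 3.19 for Oat. These intervals hold both no difference and differences of several fold. No groups were apart (0.872% of all genes, with DKO higher). Without DKO 2 the log2 fold change was below 0 for 6 genes, for example -0.46 for Glul and -0.40 for Cyp2e1.

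**Figure D2:**
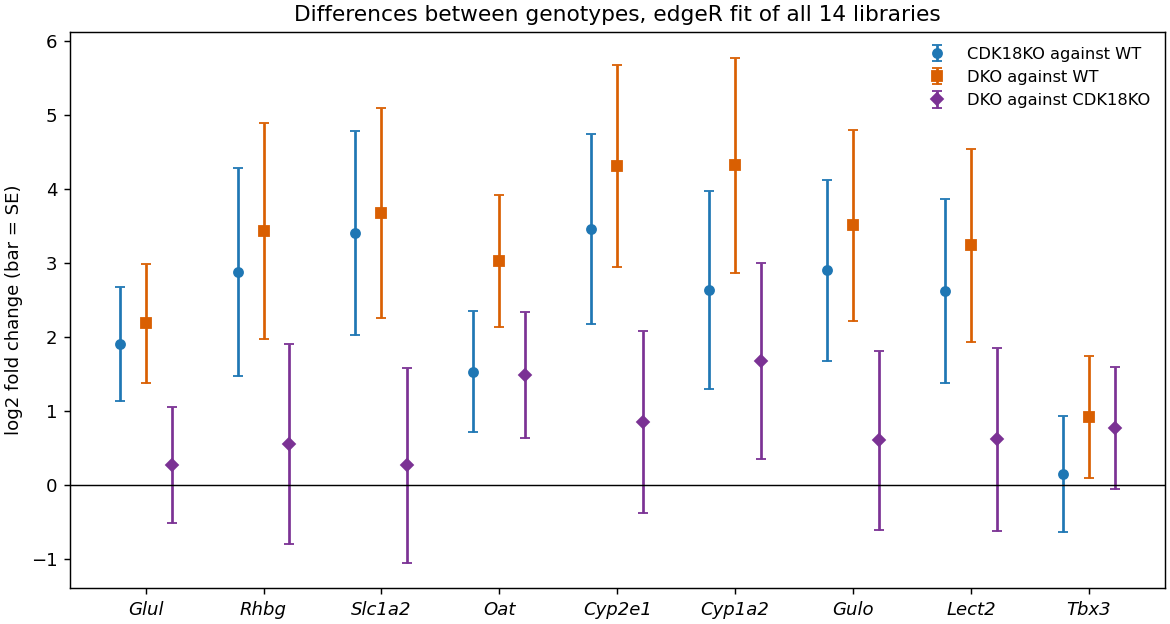
log2 fold change of each gene in the 3 comparisons, from the edgeR model of all 14 libraries; bars are 1 SE. The 8 genes other than Tbx3 sit between 1.54 and 4.32 in both comparisons with WT, which share the WT libraries, and between 0.27 and 1.68 in DKO against CDK18KO.

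The general hepatocyte markers moved with these differences. All 23 had a log2 fold change above 0 in CDK18KO against WT (median 2.38) and in DKO against WT (median 3.03). Of these 23, edgeR called 0 in either, and DESeq2 called 8 and 18, against 3.46% and 5.3% of all genes called higher. In bulk tumour tissue, fewer cells of a type and less RNA per cell cannot be told apart. Markers of other cell types also differed in level, but edgeR called 0 of them in any list. Of the 7 cholangiocyte markers tested, 4 were lower at an unadjusted p under 0.05 in CDK18KO against WT, where 5.31% of all genes were, with summed levels of 25.1 to 380 CPM in CDK18KO against 246 to 517 in WT and 175 to 949.7 in DKO. Of 12 stellate and fibroblast markers, 6 were lower by the same measure, with summed levels of 48.6 to 946 CPM in CDK18KO, 504 to 1374 in WT and 483 to 1250.0 in DKO. Of the 8 erythroid markers, 8 were higher in DKO than in WT at an unadjusted p under 0.05, where 13.7% of all genes were. Their summed levels were 1746 to 10322 CPM against 562 to 2673. The 7 neutrophil markers tested gave 5 that were higher, with sums of 396 to 592 CPM in DKO against 45.4 to 295 in WT. None of the markers in these 4 lists was at 0 throughout a group. Of 9 endothelial markers 0, and of 10 macrophage markers 3, were higher in DKO than in WT at an unadjusted p under 0.05, and 0 of either in CDK18KO. The 3 B and plasma cell markers tested were all higher in DKO, with list sums of 33.3 to 127 CPM against 2.22 to 9.26 in WT. No T or NK cell marker had enough counts to be tested. In DKO against CDK18KO, 22 of the 23 hepatocyte markers were above 0 (median 0.55). At an unadjusted p under 0.05, 5 of 7 cholangiocyte, 2 of 12 stellate and fibroblast, 8 of 8 erythroid and 5 of 7 neutrophil markers were higher. So were 3 of 3 B and plasma cell, 2 of 10 macrophage and 0 of 9 endothelial markers. Over all genes, 3.94% were higher at that p in DKO against CDK18KO. The part of these cell types in the differences of the perivenous genes was not tested.

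How each gene followed the general hepatocyte level was measured by adding the mean log2(CPM + 1) of the 23 markers to the edgeR model, beside genotype. A slope of 1 would mean a change in proportion to the markers if both were on the same scale. The 1 CPM added before the log narrows the range of the marker mean, which can raise the slopes. Slopes above 1 are thus not read as more than in proportion. With it rose 8 of the 9 genes at an adjusted p under 0.05, where 7.22% of all genes had a slope called above 0. Lect2 had a slope of 1.36 (SE 0.08, adjusted p 2.64e-07), Rhbg of 1.49 (SE 0.19, 0.000131), Cyp2e1 of 1.31 (SE 0.13, 1.45e-05), Gulo of 1.25 (SE 0.12, 1.08e-05), Cyp1a2 of 1.24 (SE 0.20, 0.000996) and Slc1a2 of 1.20 (SE 0.25, 0.00641). Glul had 0.67 (SE 0.14, 0.00604, 2 SE interval 0.39 to 0.94), below 1 in this fit. Without the 3 libraries high in Y-linked counts it had 0.71 (SE 0.17), and 2 SE then reached past 1. Oat had 0.73 (SE 0.17, 0.0138), with an interval of 0.39 to 1.07 that includes 1. Tbx3 did not pass, with 0.45 (SE 0.20, 0.189). This model was added after the data had been seen, and Oat was at an adjusted p of 0.0658 without DKO 3 and of 0.0551 without the 3 libraries high in Y-linked counts. With replicate number as a further term, only 2 of the 9 slopes passed, those of Gulo and Lect2, though the numbers do not pair the samples.

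**Figure D3:**
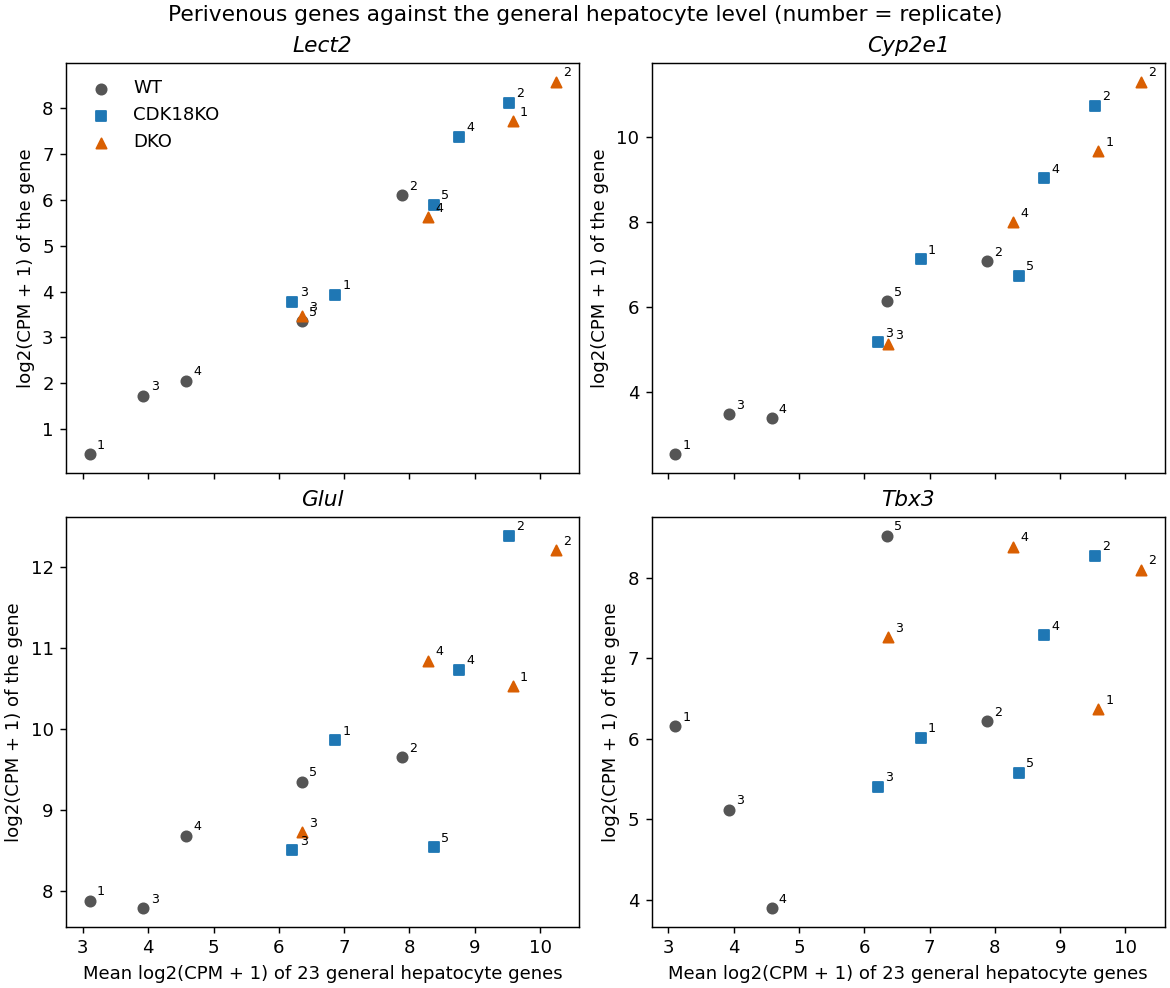
log2(CPM + 1) of Lect2, Cyp2e1, Glul and Tbx3 against the mean log2(CPM + 1) of 23 general hepatocyte genes in the 14 libraries; numbers are replicates. Lect2 lies close to a line with a slope above 1 across all 3 genotypes, and Tbx3 is scattered, with WT 5 the highest.

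With the hepatocyte level in the model, the genotype differences were mostly of the other sign. In CDK18KO against WT the log2 fold change was -0.28 (SE 0.66) for Glul, -0.052 (SE 1.08) for Slc1a2, -0.11 (SE 0.60) for Cyp2e1 and -0.26 (SE 0.36) for Lect2. It was -1.07 (SE 0.80) for Oat, -1.17 (SE 0.91) for Tbx3 and 0.17 (SE 0.50) for Gulo, and 0 of 9 passed. In DKO against WT it was -0.38 (SE 0.74) for Glul, -0.063 (SE 1.13) for Slc1a2, -0.40 (SE 0.69) for Cyp2e1 and -0.70 (SE 0.40) for Lect2. It was -0.24 (SE 0.93) for Oat and 0.27 (SE 0.94) for Cyp1a2, and 0 of 9 passed. These values set the genotypes beside each other at equal hepatocyte marker level, and the markers are themselves an outcome of the tumours.

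Glul stood highest above the hepatocyte markers in the tumours where those were lowest. Its log2(CPM + 1) exceeded the mean of the markers by 4.78, 1.77, 3.86, 4.10 and 3.00 in WT, by 3.00, 2.85, 2.29, 1.97 and 0.17 in CDK18KO, and by 0.94, 1.96, 2.36 and 2.56 in DKO. The group means of this excess were 3.50 ± 1.16 in WT, 2.06 ± 1.13 in CDK18KO and 1.96 ± 0.72 in DKO. Such an excess restates the slope, since it is larger at low marker levels for any gene with a slope below 1. Oat and Tbx3, whose slopes were also estimated below 1, had means of 1.03 and 0.82 in WT. In CDK18KO these means were -0.65 and -1.43, and in DKO 0.00085 and -1.08. The ratio of Glul to Cyp2e1 counts ran from 48.6 in WT 1 and 43.3 in WT 4 to 1.80 in DKO 1 and 1.85 in DKO 2. The ratio of Glul to Slc1a2 counts ran from 158 in WT 1, which had only 4 counts of Slc1a2, to 3.74 in CDK18KO 2. In WT 1 and WT 3, Glul, Oat and Tbx3 were at 33.8 CPM or more, and the other 6 genes at 10.2 CPM or less.

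CDK18KO 5 stood apart from that order. Its hepatocyte markers had a mean log2 of 8.37, above WT 2 with 7.88, but Glul was only 371 CPM and Slc1a2 7.88 CPM. These ranked 11 and 12 of 14 libraries. The other perivenous genes varied in rank there: Rhbg 5 (6.02 CPM), Lect2 6 (58.4 CPM), Cyp2e1 and Gulo 8, Oat 9, and Cyp1a2 and Tbx3 11. The log2 level of Slc1a2 minus the marker mean was -5.22 there and between -2.47 and 0.95 in the other libraries. Of 19 periportal genes, this tumour was among the 5 highest libraries for 15, such as Cps1, which starts the urea cycle (917 CPM), and Gls2, the liver glutaminase (93.6 CPM), and ranked between 9 and 12 of 14 for the other 4, among them Pck1 (11.1 CPM), Pigr (3.71 CPM) and Cyp2f2 (0.463 CPM). The mean log2 of the periportal list was 6.09 there, below DKO 1 with 7.38 and DKO 2 with 7.03. In CDK18KO 2, the tumour with the most Glul, Cps1 was at 866 CPM and Gls2 at 2.13 CPM. No test compares single tumours.

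Further perivenous genes gave a like picture. Of 27 tested, 25 were above 0 in CDK18KO against WT (median log2 fold change 2.91) and 27 in DKO against WT (median 3.85). None passed with edgeR in either comparison, 21 and 24 were higher at an unadjusted p under 0.05, and DESeq2 called 17 and 21 higher. Over all genes, 11.6% and 13.7% were higher at that unadjusted p, and DESeq2 called 3.46% and 5.3% higher. Rnase4, a secreted ribonuclease, was at 139 ± 126 CPM in WT, 1448 ± 1529 in CDK18KO and 1935 ± 1829 in DKO, with log2 fold changes of 3.39 (SE 0.93) and 3.81 (SE 0.97) and edgeR adjusted p of 0.162 and 0.146. Cyp7a1, the rate-limiting enzyme of bile acid synthesis, was at 10.5 ± 15.7 CPM in WT and 495 ± 562 in DKO. In DKO against CDK18KO, 23 of 27 were above 0 (median 0.70), and 0 passed with edgeR. At an unadjusted p under 0.05, 2 were higher, against 3.94% of all genes. DESeq2 called Cyp2c50 alone (adjusted p 0.0138), against 0.674% of genes called higher. The edgeR log2 fold change of Cyp2c50 was 4.21 (SE 1.16).

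The opposite zone was measured by 19 periportal genes. In CDK18KO against WT 14 of 19 were above 0, with a median of 1.06, and in DKO against WT 19 of 19, with a median of 2.26. None passed with edgeR. At an unadjusted p under 0.05, 5 and 10 were higher, against 11.6% and 13.7% of all genes. DESeq2 called 2 and 6, against 3.46% and 5.3% of genes called higher. Cps1 had log2 fold changes of 3.66 (SE 0.97) and 3.32 (SE 0.97), and Otc, the next enzyme of the urea cycle, 3.83 (SE 1.13) and 4.34 (SE 1.18). In DKO against CDK18KO 17 of 19 were above 0 (median 0.75) and DESeq2 called 2, one of them Pck1, a gluconeogenic enzyme, at 347 ± 359 against 9.25 ± 6.36 CPM (adjusted p 7.01e-05; edgeR 0.194). Over all genes, DESeq2 called 0.674% higher in DKO against CDK18KO. Fold changes were thus mostly above 0 in both zones, and the zones were not tested against each other.

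The 12 Wnt feedback genes, which β-catenin and TCF switch on in many tissues (such as Axin2, Lgr5, Notum and others), had differences of mostly the other sign, none of which passed a test. In CDK18KO against WT 0 of 12 were above 0 (median -0.80), and in DKO against WT 2 of 12 (median -0.75); 0 had an unadjusted p under 0.05 in either comparison, and 0 were called by edgeR or DESeq2. Tcf7 was at 89.7 ± 14.0 CPM in WT, 44.9 ± 43.4 in CDK18KO and 39.6 ± 19.4 in DKO (edgeR adjusted p 0.416 and 0.338 against WT). Their slope on the hepatocyte level was below 0 for 11 of 12, and none of the 12 slopes passed (adjusted p 0.173 to 0.858). In WT their mean log2 level was between 7.08 and 8.02 while that of the 9 perivenous genes was between 2.82 and 6.39. The order was turned in CDK18KO 2, CDK18KO 4, CDK18KO 5, DKO 1, DKO 2 and DKO 4. It was as in WT in CDK18KO 1, CDK18KO 3 and DKO 3. In CDK18KO 2 the means were 4.85 for the feedback genes and 9.41 for the perivenous genes, and Lef1 had 0 counts there. In CDK18KO 5 the means were closer, with 4.45 for the feedback genes and 5.44 for the perivenous genes. Of 14 Wnt regulators tested, 6 were above 0 in CDK18KO and 4 in DKO against WT (medians -0.22 and -0.26). Ctnnb1, the β-catenin gene, was at 873 ± 248 CPM in WT, 609 ± 142 in CDK18KO and 789.7 ± 236 in DKO, and whether transcripts of the plasmid are counted in it is not given. DESeq2 called 1 of the 14 regulators in DKO, against 5.3% of all genes called higher. It was Lgr4, a receptor for R-spondins, at 132 ± 31.1 against 56.3 ± 14.7 CPM (adjusted p 0.0187, edgeR 0.146).

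**Figure D4:**
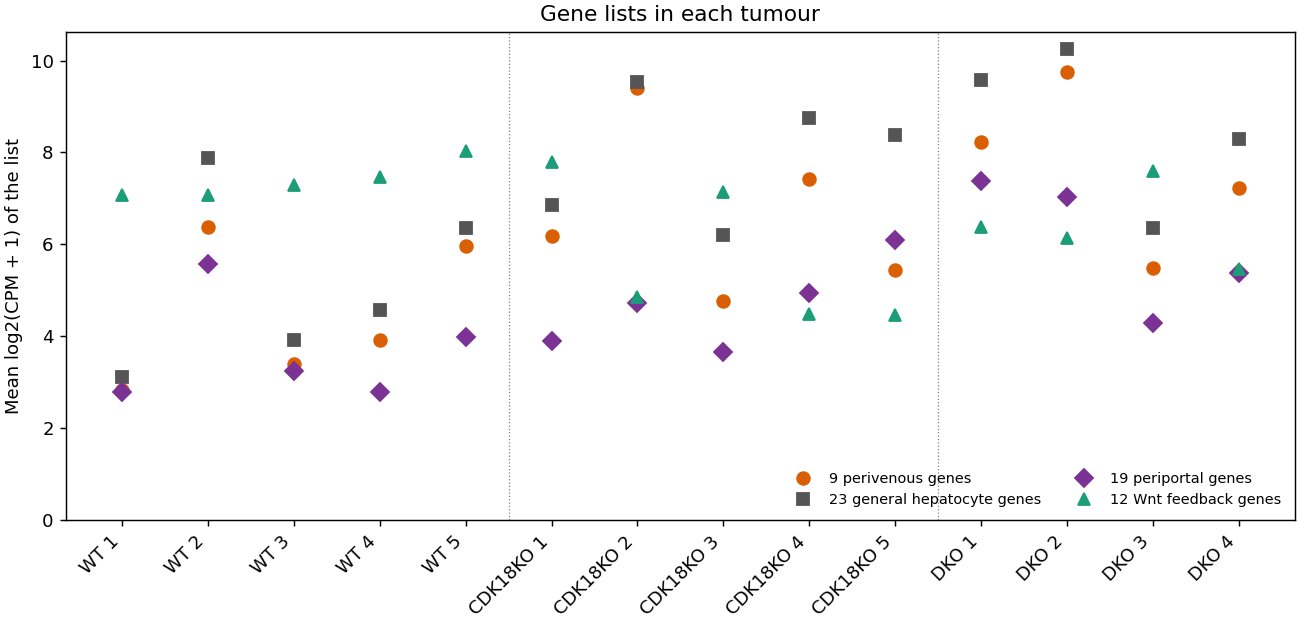
Mean log2(CPM + 1) of the 9 perivenous, 23 general hepatocyte, 19 periportal and 12 Wnt feedback genes in each library. The perivenous mean runs from 2.82 in WT 1 to 9.74 in DKO 2 with the hepatocyte mean, while the feedback mean is between 7.08 and 8.02 in WT and reaches 4.45 in CDK18KO 5.

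Genes around the members' reactions were counted too. Their lists share genes with those above: Rgn (vitamin C) and Ahr are also among the further perivenous genes, and Gls2 (glutamate) among the periportal genes. Over all genes, 11.6% and 13.7% were higher at an unadjusted p under 0.05 in CDK18KO and DKO against WT. DESeq2 called 3.46% and 5.3% higher. Of 20 glutamate and ammonia genes tested, 13 were above 0 in CDK18KO and 14 in DKO against WT (medians 0.81 and 0.75), with 7 and 8 higher at an unadjusted p under 0.05, 0 called by edgeR, and 2 and 3 called by DESeq2. Gpt, alanine aminotransferase, was at 8.53 ± 5.50 CPM in WT, 76.9 ± 84.8 in CDK18KO and 103 ± 93.5 in DKO. The 6 other genes of vitamin C synthesis and transport were all above 0 in both comparisons (medians 1.89 and 2.49), with 5 of 6 at an unadjusted p under 0.05 in each, 0 called by edgeR and 3 and 4 by DESeq2. Ugdh, which makes the UDP-glucuronate that feeds the pathway, was at 31.1 ± 16.0, 176 ± 187 and 332 ± 384 CPM in WT, CDK18KO and DKO. Of 5 genes of the aryl hydrocarbon receptor set, 3 were above 0 in each comparison (medians 0.15 and 0.40), and edgeR called 0. Ahr itself was at 18.3 ± 9.46 CPM in WT and 111 ± 119 in DKO (DESeq2 adjusted p 0.0373), and Cyp1b1 was at 12.3 ± 11.8 CPM in WT, 0.714 ± 0.903 in CDK18KO and 23.3 ± 32.7 in DKO. Cyp1b1 and Cyp1a2, both known targets of the receptor, thus lay in opposite orders in CDK18KO against WT, with log2 fold changes of -3.89 (SE 1.11) and 2.64 (SE 1.33). DESeq2 called Cyp1b1 lower (adjusted p 0.00868, edgeR 0.162), as it did 327 of 17357 genes. The reason for the opposite orders was not tested.

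Across the 14 libraries, 8 of the genes followed each other closely and Tbx3 less so. Pearson's r of log2(CPM + 1) was between 0.795 and 0.975 (median 0.908) in the 28 pairs without Tbx3 and between 0.516 and 0.683 (median 0.624) in the 8 pairs with it. These are descriptions over libraries that also share their hepatocyte level. Among all genes tested, the one most like Glul was Akr1c20 (r = 0.980), which was also the most like Slc1a2 (r = 0.983). Lect2 was nearest to Rdh7 (r = 0.991), followed by C3 (0.990), Cyp2e1 to Agmo (0.988), Gulo to Ces1c (0.987), Cyp1a2 to Cyp2c70 (0.982) and Rhbg to Cyp4f15 (0.962). Oat was nearest to Vmn1r13 (0.958) and Tbx3 to Tgfa (0.903), the lowest of the 9 best matches.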

How the data were processed

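Polyadenylated RNA of snap-frozen liver tumours was sequenced from the 3′ end with unique molecular identifiers (QuantSeq, forward, stranded), per the labels' protocols. The authors deposited 1 table of raw counts per gene symbol (77981 genes, 14 libraries). Per the submitters' processing notes, the tools included STAR 2.7.11a, HTSeq 1.99.2, DESeq2 1.32.0, UMI-tools 1.1.2 and FastQC; mm10 and GRCh38 are both named, with no role. The sources used here do not say whether identifiers were collapsed, nor the annotation and strand setting of the counting, and counting error alone does not describe the precision. Total counts were 1442417 to 6068209, and every column was assigned to a sample by its name.

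The main test was edgeR 4.0.16 (R 4.3.3), quasi-likelihood F test with TMM scaling on the counts of all 14 libraries in 1 model by genotype, so that the groups share 1 estimate of the spread. filterByExpr kept 13997 genes (99.0% of counts), all 9 perivenous genes among them; adjusted p-values are Benjamini-Hochberg over the 13997, with a threshold of 0.05. SE is |log2 fold change| over the root of F. The p-values measure the spread between the tumours, which the submitters call biological replicates. log2 levels are log2(CPM + 1). Alternatives were DESeq2 1.42.0, other scaling and filters, only the 2 groups compared, replicate number, Y-linked or hepatocyte level as a term, and leaving out each library.

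The genes, the lists (other perivenous, periportal, Wnt feedback, Wnt regulators, glutamate and ammonia, aryl hydrocarbon receptor, vitamin C, hepatocyte and other cell type markers) and the tests were chosen with earlier results of these data known. Genes named from a list are among the 4 with the smallest p in a comparison described, except Gls2, Pigr and the single CDK18KO tumours described, which were chosen after their values were seen. The genes most like each member are those with the largest r, with no test.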

Additional observations from a re-analysis of the deposited data

Results flagged for a closer look

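In 9 of 27 sets of values (a gene in a genotype), 1 tumour lay apart from the others by Dixon's criterion, which chance meets in about 1 set in 20 where values are normally distributed; CPM are skewed, and the sets share libraries. On log2(CPM + 1), a scale chosen after seeing the data, only 1 of the 27 sets did so, Oat in WT with WT 5. CDK18KO 2 was the high tumour for Glul (5340.2 CPM), Cyp2e1 (1719), Slc1a2 (1429), Cyp1a2 (432) and Rhbg (69.1). WT 2, the deepest library, was the high tumour for Lect2 (67.6 CPM) and Rhbg (8.11). WT 5, the shallowest, was the high tumour for Tbx3 (368 CPM) and Oat (201). The reasons were not tested. CDK18KO 2 thus lifts the CDK18KO means and their SD, and WT 2 and WT 5 those of WT.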

How the results depend on the processing

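The number of the 9 genes past the threshold was 0 in every comparison with edgeR, and remained 0 in each of the 14 fits that left out 1 library. It was 1 (CDK18KO) and 5 (DKO) against WT with DESeq2, 1 in DKO against WT with no filter on low counts (Oat, adjusted p 0.0434), and 1 with the replicate block (Rhbg, adjusted p 0.0326). Same-numbered tumours did not consistently deviate together (correlations from -0.241 to 0.658, own number the best match only for replicate 2), so the numbers do not pair the samples. Over all genes the count of calls, 1, 1 and 0 in CDK18KO against WT, DKO against WT and DKO against CDK18KO, was 928, 1033 and 126 with DESeq2, 173, 252 and 42 with no filter, 297 and 438 against WT with the replicate block, and 2, 2 and 1 with the hepatocyte level as a term. It was 0 and 0 against WT in a model of only the pair compared, with the Y-linked level as a term, and without the 3 libraries high in Y-linked counts. Leaving out 1 library gave 0 to 74 calls, 0 to 1 and 0 to 2, the 74 without CDK18KO 1.

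With the hepatocyte level as a term, many log2 fold changes turned below 0, each within 2 SE of 0. In CDK18KO against WT they were -0.28 (Glul), -0.23 (Rhbg), -0.052 (Slc1a2), -1.07 (Oat), -0.11 (Cyp2e1), -0.23 (Cyp1a2), -0.26 (Lect2) and -1.17 (Tbx3). In DKO against WT they were -0.38 (Glul), -0.64 (Rhbg), -0.063 (Slc1a2), -0.24 (Oat), -0.40 (Cyp2e1), -0.11 (Gulo), -0.70 (Lect2) and -0.33 (Tbx3). In DKO against CDK18KO they were -0.10 (Glul), -0.41 (Rhbg), -0.010 (Slc1a2), -0.29 (Cyp2e1), -0.29 (Gulo) and -0.43 (Lect2). Leaving out 1 library moved Tbx3 between -0.52 and 1.33 in CDK18KO against WT. In DKO against CDK18KO it moved Glul between -0.46 and 1.30, Rhbg between -0.46 and 2.68, Slc1a2 between -0.46 and 2.48, Cyp2e1 between -0.40 and 2.15, Gulo between -0.37 and 1.43 and Lect2 between -0.19 and 1.35. The lowest values came without DKO 2, or without CDK18KO 2 for Tbx3. The slopes on the hepatocyte level were called for 8 of 9 genes, for 7 to 8 when 1 library was left out and for 2 (Gulo and Lect2) with the replicate block, where the other 6 had adjusted p from 0.0784 to 0.714 and that of Tbx3 was -0.18. The causes were not tested.

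With 5, 5 and 4 tumours, SEs against WT of 0.77 to 1.46 on the log2 scale limit what could be detected. Low counts limit Rhbg, Cyp1a2, Lect2, Gulo and Slc1a2 in WT.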
